A study of Mus musculus with 6 samples.

Results

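Immediate early genes are switched on within minutes of a stimulus, before any new protein is made, and most of their transcripts are short-lived. The set described here comprised 10 genes chosen by symbol from the 23997 genes of the table, namely *Fos*, *Fosb*, *Jun*, *Junb*, *Egr1*, *Egr2*, *Atf3*, *Ier2*, *Dusp1*, and *Nr4a1*, and all 10 were listed. The tissue was the ductus arteriosus (DA), the fetal artery that joins the pulmonary artery to the aorta, taken from C57BL/6 mouse embryos at E17.5 and measured by bulk RNA-Seq. The 3 libraries labelled WT came from wild-type embryos, and the 3 labelled KO came from embryos of the genotype Prdm6f/f; SM22-Cre. In the latter both copies of *Prdm6* are floxed and Cre-recombinase is driven by the promoter of SM22, so that removal is aimed at smooth muscle cells and other cells of the vessel keep the gene. The embryos were untreated, and each DA was flash frozen after removal. Immediate early genes are also sensitive to handling during dissection, and its part in the levels below was not tested. Whether a library was made from 1 embryo or from a pool was not given in the sources used here. The p values therefore refer to libraries and may not refer to single embryos.

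Serum response factor (SRF), bound with its ETS partners, and the cAMP-responsive factor CREB turn on many of these genes once signals through MAP kinases, calcium, or cAMP arrive. Fos and Jun proteins pair to form the transcription factor AP-1, whereas Dusp1 is a phosphatase that turns the MAP kinases off again. In smooth muscle, SRF also drives the contractile genes together with myocardin.

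Several features of the libraries bear on these genes. The values are FPKM (fragments per kilobase of transcript, scaled to the mapped fragments of the library), which can be compared between genes. Total depth is unknown. In genes with 1 annotated transcript, values in a preset low range were densest at 0.0706 to 0.0912 FPKM for a transcript of 1 kilobase. This rests on 21 to 40 genes per library. The fragment numbers below assume that this value stands for 1 fragment, which was not tested. Between 8338 and 11886 genes were listed at 0 per library, the most in WT 2. Between 34 and 61 of the 3506 genes that averaged 20 FPKM or more were at 0 in a given library, so a 0 can be a failed estimate. The summed FPKM of 10 heart muscle markers was 1760 in WT 1 and 2010 in KO 2 and between 57.7 and 465 in the other libraries. KO 0 held both *Xist* (81.0 FPKM) and the Y-linked *Ddx3y* (26.4 FPKM). The floxed gene itself, *Prdm6*, was at 41.7, 48.4, and 19.8 FPKM in the WT libraries and at 48.6, 27.1, and 15.4 FPKM in the KO libraries, so its summed level does not separate the labels. All directions below rest on the labels.

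The 12955 genes that averaged 1 FPKM or more were tested by limma on the log2(FPKM + 0.1) scale, and p values were adjusted over all of them by the Benjamini-Hochberg method. In limma the variance of each gene is drawn toward that of genes of like level. Its standard errors, intervals, and p values therefore do not rest on a gene's own spread alone. Fold changes are KO minus WT on this log2 scale, which understates differences between low FPKM values above 0. For such genes a value of 0 in 1 library can instead enlarge a fold change or turn its sign. Of the 10 immediate early genes, 9 passed the filter, and *Egr2* did not.

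Most of the genes are compact. In GENCODE vM21 on GRCm38, the assembly of mm10, their median span was 5938 bases against 25374 bases for the 11892 protein-coding genes tested, and their longest coding transcript had a median of 3.0 exons against 9.0. *Jun*, *Junb*, and *Ier2* have 1 exon. *Jun* (chromosome 4, 95049034 to 95052222, minus strand) overlaps the antisense gene *Junos*, and the annotated span of *Junb* (chromosome 8, 84974484 to 84978718, minus strand) overlaps *Prdx2* on the opposite strand. *Atf3* and *Dusp1*, with spans of 47744 and 56539 bases, are longer than the median gene tested and also share bases with other annotated genes. Whether reads were assigned by strand was not given in the sources used here, so reads of such partners cannot be told apart.

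Promoter sequences of 300 bases (250 before the start of transcription and 50 from it) were matched by symbol in RefSeq for 8 of the 10 genes, on GRCm38.p6, and not for *Egr1* or *Ier2*. *Egr2* had several annotated starts. A gene was counted if any of its promoters held a match, whereas the percentages below count single promoters, so the units differ. Both strands were searched for the CArG box bound by SRF, the cAMP response element TGACGTCA, its core TGACGT (which every full element holds), the AP-1 site TGANTCA, the EGR site GCGTGGGCG, the ETS site CCGGAAGT, and TATAAA. This core was in promoters of 4 of the 8 genes (*Fos*, *Egr2*, *Atf3*, and *Dusp1*), and 7.51% of all 32851 promoters held it. A CArG box was found for 1 gene, *Egr2*, and in 1.63% of all promoters. The full cAMP element was found for 1 gene, *Dusp1*, and in 1.79% of all promoters. TATAAA was found for *Fos* and *Junb* and in 13.6% of all promoters. The AP-1, EGR, and ETS sites had 0 matches among the 8 genes and were held by 7.81%, 0.612%, and 3.89% of all promoters. These matches describe letters in the window and not sites in use. Bases farther from the start, and the promoters of *Egr1* and *Ier2*, were not searched. A gene without a match here may therefore hold the element elsewhere. Promoters of the 4 genes with a core element are printed below 5′ to 3′ along the gene, to show the matches in this window. Their order is *Fos* (chr12:85473640-85473939, plus strand), *Egr2* (chr10:67537619-67537918, plus strand), *Atf3* (chr1:191183284-191183583, minus strand), and *Dusp1* (chr17:26508423-26508722, minus strand). Capitals mark the matches, and a core element read from the other strand appears as ACGTCA.
Fos: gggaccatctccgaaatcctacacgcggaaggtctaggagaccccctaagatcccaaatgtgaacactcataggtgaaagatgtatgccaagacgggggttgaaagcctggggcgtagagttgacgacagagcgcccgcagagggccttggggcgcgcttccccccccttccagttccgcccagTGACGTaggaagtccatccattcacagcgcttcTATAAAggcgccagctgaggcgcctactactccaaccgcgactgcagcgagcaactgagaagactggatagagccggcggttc
Egr2: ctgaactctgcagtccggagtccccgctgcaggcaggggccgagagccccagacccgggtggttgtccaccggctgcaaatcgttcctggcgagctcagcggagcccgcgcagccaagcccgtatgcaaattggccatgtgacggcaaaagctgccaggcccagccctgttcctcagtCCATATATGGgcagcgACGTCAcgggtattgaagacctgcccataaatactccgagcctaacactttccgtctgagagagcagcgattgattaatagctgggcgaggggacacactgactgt
Atf3: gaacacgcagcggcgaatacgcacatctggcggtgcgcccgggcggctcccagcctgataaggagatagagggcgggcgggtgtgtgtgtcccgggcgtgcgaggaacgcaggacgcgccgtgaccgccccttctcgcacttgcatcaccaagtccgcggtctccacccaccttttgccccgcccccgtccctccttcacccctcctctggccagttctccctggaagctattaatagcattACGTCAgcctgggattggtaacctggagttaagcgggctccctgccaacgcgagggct
Dusp1: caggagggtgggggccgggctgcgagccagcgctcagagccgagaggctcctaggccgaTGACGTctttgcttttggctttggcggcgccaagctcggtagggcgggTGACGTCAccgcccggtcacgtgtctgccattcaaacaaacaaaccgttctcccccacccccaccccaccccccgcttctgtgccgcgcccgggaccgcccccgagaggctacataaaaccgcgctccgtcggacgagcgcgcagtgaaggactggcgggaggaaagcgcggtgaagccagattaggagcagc
In *Fos* the core element began 66 bases before the start and TATAAA 33 bases before it. In *Egr2* the CArG box began 72 bases before the start, with the core element at 56 bases. In *Atf3* the core element lay 8 bases before the start, and in *Dusp1* the full element lay 143 bases before it.

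In the WT libraries *Jun* had the highest level of the set, with 52.9 ± 6.24 FPKM (SD, n = 3), and its range did not meet that of any other member. *Egr1* followed with 12.6 ± 0.979 FPKM and *Dusp1* with 10.5 ± 2.60 FPKM, and their ranges overlapped. *Atf3*, *Nr4a1*, *Junb*, *Ier2*, and *Fos* had means between 8.10 and 2.52 FPKM, and each overlapped the next in this order. *Fosb* (0.902 FPKM) and *Egr2* (0.233 FPKM) were lowest, below every WT value of *Fos*. In the KO libraries *Jun* again led with 39.8 ± 6.36 FPKM (SD, n = 3), and from *Dusp1* (8.96 FPKM) down to *Egr2* (0.535 FPKM) every neighbour overlapped. *Egr1* stood in place 2 in the WT libraries and in place 4 in the KO libraries.

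**Figure D1:**
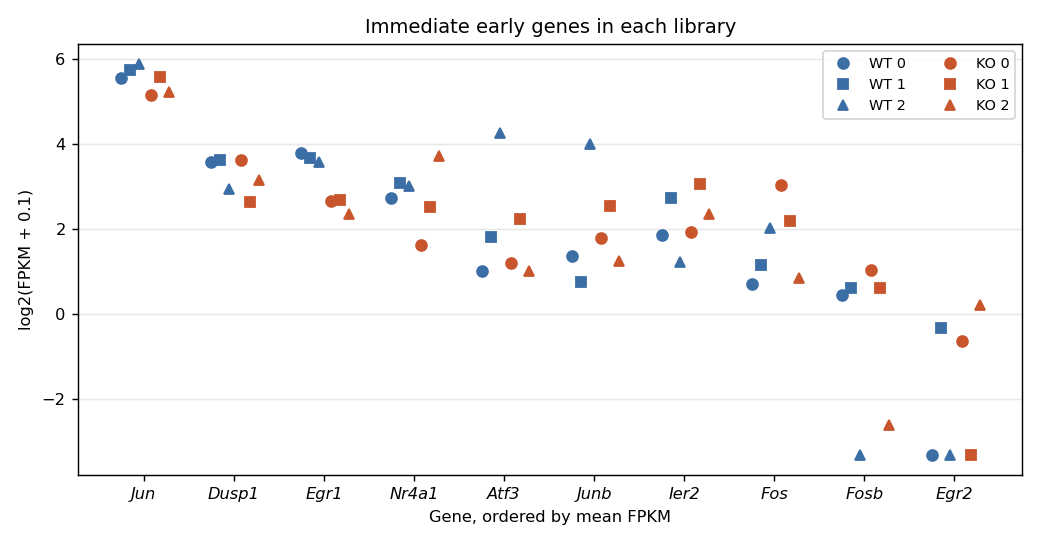
Level of each immediate early gene in each library, as log2(FPKM + 0.1), with the genes ordered by mean FPKM. Blue marks are the 3 WT libraries and orange marks the 3 KO libraries, and the mark shape gives the library number. *Egr1* is the gene whose groups do not overlap, and WT 2 stands above the other libraries for *Atf3* and *Junb*.

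*Egr1*, which encodes a zinc finger transcription factor induced by growth factors and stretch, differed most clearly between the groups. It lies on chromosome 18 of GRCm38 from 34859823 to 34864984 on the plus strand. Its FPKM was 13.6, 12.5, and 11.7 in WT 0, 1, and 2 and 6.15, 6.28, and 4.99 in KO 0, 1, and 2. Every KO library lay below every WT library, and the KO mean was 46.1% of the WT mean. On the log2 scale the difference was -1.11 (standard error 0.28, 95% interval -1.76 to -0.46), with an unadjusted p of 0.00463 and an adjusted p of 0.463 from limma, which did not pass the adjusted threshold. A two-sided exact permutation test gave p = 0.1, the smallest that 3 libraries against 3 allow. By unadjusted p it ranked 124 of the 12955 genes.

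Of the 9 members tested, 0 had an adjusted p under 0.05, where 1 gene, or 0.00772% of all genes tested, did. *Egr1* was the 1 member with an unadjusted p under 0.05 in limma, a call made for 8.28% of all genes in either direction, for 4.97% with KO lower, and for 3.31% with KO higher. It was also the 1 member whose groups did not overlap, as was found for 16.1% of all genes in either direction, for 7.84% with KO lower, and for 8.21% with KO higher. With 9 members tested, 1 is near these background shares. The log2 fold change was negative for 6 members and positive for 3, and below 0 for 44.4% of all genes. Their median was -0.25, beside 0.072 for all genes.

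The groups of *Egr1* do not overlap, so leaving out 1 library could not turn the sign of its difference and adds no separate support. With each library left out in turn its log2 fold change stayed between -1.17 and -1.01, KO 0 included, and its unadjusted p from limma stayed under 0.05. Without WT 1 and KO 2, whose heart muscle transcripts were high, it was -1.01 with an unadjusted p of 0.0583 and an adjusted p of 0.791 from limma, an omission chosen after the data were seen. Its spread within the groups, an SD of 0.15 on the log2 scale, lay at percentile 3.15 among the 5527 genes whose mean FPKM lay within 2-fold of its own.

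Besides *Egr1*, summed markers of some cell types differed between the groups. The smooth muscle markers used are all also on the list of smooth muscle contractile genes described below. The summed FPKM of 8 smooth muscle markers, which include *Acta2* and *Myh11*, was 2470 to 5690 in the WT libraries and 882 to 2400 in the KO libraries, with all 8 lower on the log2 scale and 5 of them at an unadjusted p under 0.05. The summed FPKM of 8 Schwann cell markers was 14.2 to 36.4 against 45.9 to 144, and that of 8 neuron markers was 8.05 to 23.1 against 40.6 to 60.5. Of the Schwann cell markers, 7 were higher on the log2 scale and 1, *S100b*, was lower, and the groups of 3 did not overlap. Of 6 neuron markers tested, 6 were higher, and the groups of 3 did not overlap. In the smooth muscle, Schwann cell, and neuron lists the sums of the groups did not overlap. Endothelial sums were 296 to 445 against 383 to 585, macrophage sums 35.5 to 149 against 31.0 to 97.9, fibroblast sums 3200 to 6290 against 2410 to 5240, and epithelial and mesothelial sums 66.7 to 233 against 82.1 to 185. Erythroid sums were 4350 to 8750 against 4980 to 27500, with *Hba-a2* at 0 in all libraries. *Rn45s*, the precursor of ribosomal RNA, also split by group. It was listed at 0 in the 3 WT libraries and at 3060, 3810, and 4520 FPKM in KO 0, 1, and 2, and it was the 1 gene past the adjusted threshold in limma. The part of these markers and of *Rn45s* in the *Egr1* result was not tested. Since *Rn45s* followed the labels in every library, whatever split it cannot be told apart from genotype in any KO against WT difference given here. In bulk tissue, fewer cells of a type and less RNA per cell cannot be told apart.

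*Jun*, the main partner of Fos proteins in AP-1, had the second smallest p of the set. Its FPKM was 46.4, 53.4, and 58.9 in the WT libraries and 35.3, 47.1, and 37.1 in the KO libraries. KO 1 lay just above WT 0, so the groups overlapped by this pair alone. Its log2 fold change was -0.41 (standard error 0.19, 95% interval -0.85 to 0.024, unadjusted p = 0.0609, adjusted p = 0.611 from limma). Without KO 1 the unadjusted p from limma was 0.0358 with an adjusted p of 0.881, and omission of each library gave values from -0.54 to -0.33.

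*Junb*, a Jun family member that also pairs with Fos, was set apart by 1 library. Its FPKM was 2.47, 1.59, and 15.8 in the WT libraries and 3.35, 5.73, and 2.28 in the KO libraries. WT 2 was the highest and WT 1 the lowest of the 6, so the WT libraries enclosed all the KO values. KO minus WT was -0.18 on the log2 scale (standard error 0.87, 95% interval -2.21 to 1.86, adjusted p = 0.960 from limma), and it became 0.80 without WT 2 and 0.13 without KO 2.

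*Atf3*, a stress-induced partner and repressor in the ATF/CREB family, had the same outlying library. Its FPKM was 1.92, 3.37, and 19.0 in the WT libraries and 2.18, 4.58, and 1.90 in the KO libraries. Apart from WT 2, the groups overlapped, with KO 1 above both other WT libraries. The log2 fold change was -0.88 (standard error 0.87, 95% interval -2.91 to 1.14, adjusted p = 0.757 from limma) and became 0.066 without WT 2. By the fragment estimate described above, WT 2 held about 414 *Atf3* fragments and 313 *Junb* fragments, against at most 129 and 147 in the other libraries.

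*Fos*, the founding Fos family gene, was highest in a KO library. Its FPKM was 1.53, 2.11, and 3.92 in the WT libraries and 8.03, 4.44, and 1.70 in the KO libraries. KO 0 and KO 1 lay above every WT library, whereas KO 2 lay among them. KO minus WT was 0.73 on the log2 scale (standard error 0.71, 95% interval -0.93 to 2.39, adjusted p = 0.756 from limma), and it dropped to 0.23 without KO 0 and reached 1.31 without KO 2.

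*Fosb*, the close relative of *Fos*, was low throughout. Its FPKM was 1.27, 1.43, and 0 in the WT libraries and 1.96, 1.42, and 0.0634 in the KO libraries. WT 2 and KO 2 were near or at 0, and the other 4 libraries lay close together. Its log2 fold change of 0.43 (standard error 1.73, 95% interval -3.60 to 4.45, adjusted p = 0.949 from limma) turned to -0.59 with quantile normalization and to -0.86 without WT 2. It was 0.15 with a pseudocount of 1, 1.16 with a pseudocount of 0.01, and 2.26 without WT 1 and KO 2.

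*Ier2*, a small nuclear protein of the same response, had an FPKM of 3.54, 6.52, and 2.22 in the WT libraries and 3.68, 8.14, and 4.96 in the KO libraries. The ranges overlapped, with KO 1 highest. Its log2 fold change was 0.50 (standard error 0.55, 95% interval -0.78 to 1.78, adjusted p = 0.780 from limma), and with a library left out it ranged from 0.14 to 0.90.

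*Dusp1*, the MAP kinase phosphatase, had an FPKM of 11.7, 12.2, and 7.51 in the WT libraries and 12.1, 6.07, and 8.73 in the KO libraries. KO 0 lay between WT 0 and WT 1. The log2 fold change was -0.25 (standard error 0.36, 95% interval -1.09 to 0.60, adjusted p = 0.832 from limma) and 0.00068 without KO 1.

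*Nr4a1*, an orphan nuclear receptor, had an FPKM of 6.51, 8.37, and 7.98 in the WT libraries and 2.96, 5.56, and 13.0 in the KO libraries. The WT libraries lay close together, and the KO libraries lay on both sides of them. Its log2 fold change was -0.33 (standard error 0.54, 95% interval -1.59 to 0.92, adjusted p = 0.848 from limma), and it became 0.17 without KO 0.

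*Egr2*, the relative of *Egr1* known for its role in myelinating Schwann cells, was listed at 0 in WT 0, WT 2, and KO 1. It was at 0.700 FPKM in WT 1 and at 0.543 and 1.06 FPKM in KO 0 and KO 2. Where it was above 0 these values stand for about 20 to 38 fragments, and no group difference could be read at this depth. With the filter lowered to a mean FPKM of 0.1, its log2 fold change was 1.08 (standard error 1.39, adjusted p = 0.803 from limma).

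**Figure D2:**
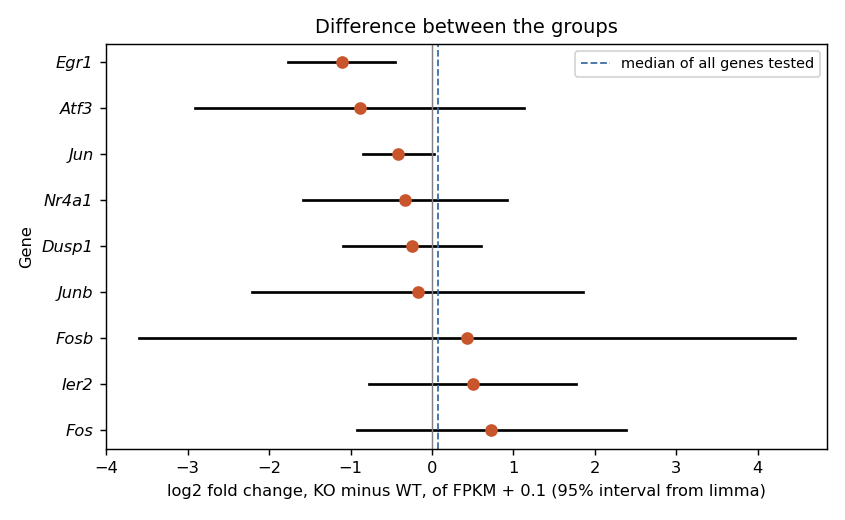
Log2 fold change (KO minus WT) of the 9 immediate early genes that passed the filter, on the log2(FPKM + 0.1) scale, with 95% intervals from limma as bars. The dashed line is the median of all 12955 genes tested, 0.072. The interval of *Egr1* lies wholly below 0, and those of the other 8 genes include 0.

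The intervals set what these libraries could show. For *Junb*, *Atf3*, *Fos*, and *Fosb* they reached beyond a log2 difference of 1 in both directions, or nearly so for *Fos* at -0.93. For *Dusp1* a difference above 0.60 or below -1.09 lay outside the interval. The adjusted p values above 0.05 do not show that these transcripts were alike in the 2 groups.

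The members differed widely in how much they varied between libraries of 1 group. The SD within groups on the log2 scale was 0.15 for *Egr1*, 0.20 for *Jun*, and 0.44 for *Dusp1*, and it was 1.30 for *Junb*, 1.28 for *Atf3*, and 2.12 for *Fosb*. Over the 9 members the median SD was 0.76, against 0.50 for all genes tested, and 6 members were above that of all genes. Low genes vary more on this scale, so each was also set beside genes within 2-fold of its mean FPKM. There *Atf3* lay at percentile 81.4, *Junb* at 80.3, *Fosb* at 72.6, and *Nr4a1* at 71.6, whereas *Fos*, *Ier2*, and *Dusp1* lay between 48.3 and 55.9, *Jun* at 25, and *Egr1* at 3.15.

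**Figure D3:**
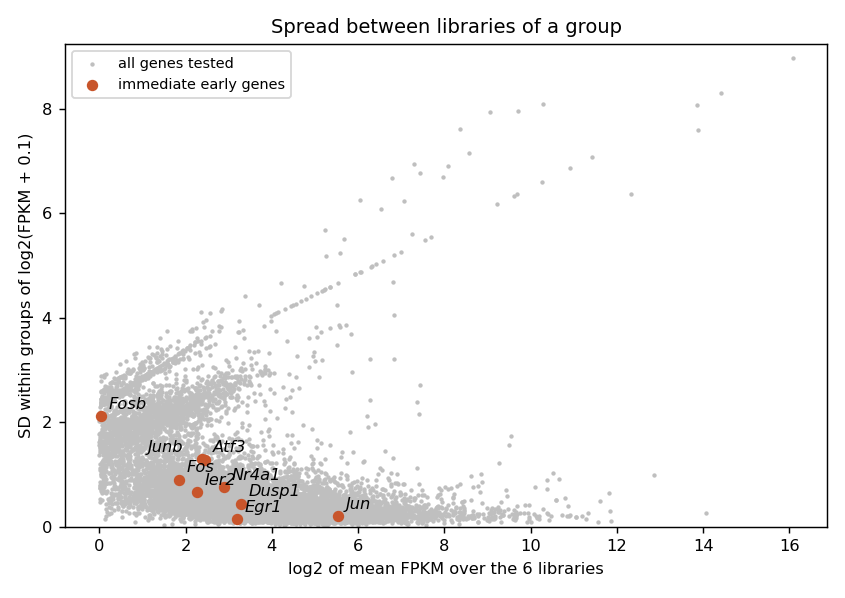
SD within groups of log2(FPKM + 0.1) against the log2 of the mean FPKM over the 6 libraries, for all 12955 genes tested (grey) and the 9 immediate early genes (orange, named). *Egr1* lies at the lower edge of the genes of its level with an SD of 0.15, and *Junb* and *Atf3* lie above most of theirs with 1.30 and 1.28.

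The members did not share 1 pattern over the libraries. WT 2 was the highest library for 3 of the 9 (*Jun*, *Junb*, and *Atf3*), as it was for 25.6% of all genes tested. KO 0 was highest for 2 (*Fos* and *Fosb*), and each of the other 4 libraries was highest for 1. KO 2 had the lowest median deviation from the gene means, -0.70 on the log2 scale, with 2 of 9 members above their own mean there. In root mean square over the 6 libraries, single members differed from the mean pattern of the set by 0.22 (*Jun*) to 1.67 (*Fosb*) on the log2 scale.

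By the same measure, the genes outside the set nearest to that mean pattern were *Ltbp4*, *Dap*, *Tssc4*, *Lix1l*, *Amotl2*, *2310022B05Rik*, *Lats1*, *Nsmf*, *Itga4*, and *Sncaip*, at differences of 0.070 to 0.11. The median over the 9116 genes compared, which averaged 5 FPKM or more, was 0.45. These 10 genes were chosen as the nearest, so their differences cannot be weighed against those of the members. Among the members *Jun* was nearest at 0.22, and the next, *Dusp1*, was at 0.50, above that median. Of the 10 genes, 0 are on the related lists.

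Related genes were described by lists, with 0 genes past an adjusted p of 0.05 in each. Their counts at an unadjusted p under 0.05 stand beside 4.97% of all genes with KO lower and 3.31% with KO higher. Of 45 other immediate early genes tested, 3 had an unadjusted p under 0.05 from limma with KO lower and 1 with KO higher, which is near the shares of all genes, and their median log2 fold change was -0.19. *Srf*, which encodes the factor upstream of many members, was at 21.9, 18.6, and 23.9 FPKM in the WT libraries and at 9.57, 13.5, and 10.3 FPKM in the KO libraries. As for *Egr1*, every KO library lay below every WT library, and the log2 difference was -0.95 (standard error 0.24), with an unadjusted p of 0.00471 and an adjusted p of 0.463 from limma. *Gadd45g*, a stress-induced growth arrest gene, had a log2 fold change of -2.22 (unadjusted p = 0.0094 from limma). *Ctgf*, a matricellular protein, had a log2 fold change of -1.42 (unadjusted p = 0.0123 from limma). The member with KO higher was *Gadd45a*, named after its values were seen, at 0, 0.96, and 0 FPKM against 4.71, 7.44, and 1.59 FPKM.

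Of 24 other AP-1 and bZIP genes tested, 4 had an unadjusted p under 0.05 from limma with KO lower and 0 with KO higher, beside 4.97% and 3.31% of all genes, and the median log2 fold change was -0.23. *Cebpb*, *Crem*, and *Jdp2*, transcription factors of the C/EBP, CREB, and AP-1 groups, had log2 fold changes of -1.02, -0.99, and -1.06 with unadjusted p values of 0.0101, 0.0356, and 0.0443 from limma. For *Cebpb* the FPKM was 10.9, 12.8, and 16.6 in the WT libraries and 7.28, 5.49, and 6.84 in the KO libraries. *Jund*, the Jun family member outside the set, was at 33.2 to 49.0 FPKM against 36.1 to 60.6 FPKM and was named after its values were seen.

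Among the 26 genes of SRF, its cofactors, and the kinases upstream, the median log2 fold change was 0.042. *Srf* was the 1 gene with KO lower at an unadjusted p under 0.05 from limma. *Rps6ka1*, a kinase downstream of ERK, was the 1 gene with KO higher (log2 fold change 1.36, unadjusted p = 0.0398), and *Rps6ka3* had 0.75 (unadjusted p = 0.0627 from limma). Of 20 feedback phosphatases and inhibitors tested, 1 had an unadjusted p under 0.05 from limma, with KO lower, which is near the 4.97% of all genes, and the median was 0.046. The smallest p in this list was that of *Dusp10*, at a log2 fold change of -0.66 (unadjusted p = 0.0481 from limma), whereas *Dusp4* and *Tob1* had 2.84 and 0.66 (unadjusted p = 0.0622 and 0.0748).

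Of 19 heat shock and stress genes tested, 5 had an unadjusted p under 0.05 from limma with KO lower and 0 with KO higher, beside 4.97% and 3.31% of all genes, and the median log2 fold change was -0.25. The smallest p values were those of the chaperone genes *Hspe1*, *Hspb1*, and *Hspb8*, with log2 fold changes of -1.33, -1.03, and -1.04 (unadjusted p = 0.00288, 0.00423, and 0.00831 from limma). The 22 smooth muscle contractile genes, which share SRF as a regulator with the immediate early genes, had log2 fold changes with a median of -0.82, with 22 negative, 10 at an unadjusted p under 0.05 from limma, and 11 without overlap of the groups, beside 4.97% and 7.84% of all genes with KO lower. *Tpm2*, *Lmod1*, and *Actg2* had log2 fold changes of -2.14, -2.05, and -1.57. Contractile genes were known from earlier results to be lower in the KO libraries and are given as background to *Egr1* and *Srf*.

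**Figure D4:**
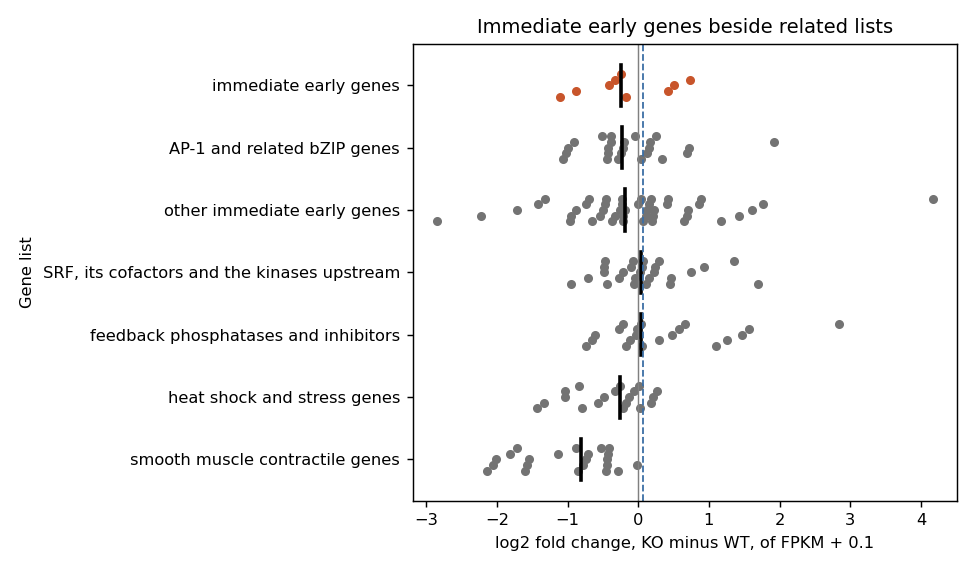
Log2 fold change (KO minus WT, on the log2(FPKM + 0.1) scale) of each gene tested in the immediate early set (orange) and the 6 related lists (grey). Black bars are list medians and the dashed line is the median of all genes tested. The immediate early set has a median of -0.25 with genes on both sides of 0, and the smooth muscle contractile genes have a median of -0.82 with all 22 below 0.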

How the data were processed

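Bulk RNA-Seq libraries of E17.5 DA, 3 labelled WT and 3 labelled KO, were grouped by the sample titles, and each column was matched to its title, with 0 columns unmatched. Reads had been quality- and length-trimmed and mapped with TopHat2 to mm10, and the authors deposited FPKM values from Cufflinks. Cuffdiff, which they used further, was not run here. Versions, gene annotation, and scaling between libraries were not given in the sources used here. Since no counts were at hand, no count model was fitted, and the fragment numbers given are estimates from the steps between low values times the longest coding transcript in GENCODE vM21.

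The fit on log2(FPKM + 0.1) used limma 3.58.1 (R 4.3.3; lmFit, then eBayes with trend), two-sided at a threshold of 0.05, over genes averaging 1 FPKM or more. The scripts were tested on simulated data with a known log2 change in 200 genes. At a change of 1, 0 of these 200 genes had an adjusted p under 0.05 from limma. At a change of 2, 70 of them did, along with 4 unchanged genes. A change of 1 would thus seldom pass the adjusted threshold with these libraries. The 10 genes and all lists were chosen with earlier results of these data known. Named were all members, the 3 genes with the smallest p in each related list, and the 10 genes with the pattern most like that of the set. Alternatives covered the pseudocount, filter, scaling, variance model, replicate block, and libraries left out. The omission of the libraries high in heart muscle transcripts was chosen after the data were seen.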

Additional observations from a re-analysis of the deposited data

How the results depend on the processing

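Over 17 alternative settings, 0 of the 10 immediate early genes had an adjusted p under 0.05 from limma, and the lowest adjusted p of any member was 0.365. Of 146 log2 fold changes, 139 kept their sign and 7 turned it, in 5 genes. Settings of the filter, the variance model, and the replicate block cannot change a fold change, so the signs kept there add no support. The gene count past an adjusted p of 0.05, 1 in the reported fit, was 2 without the mean-variance trend, 2 without moderation, 3 without WT 1 and KO 2 (high in heart muscle transcripts), and 1 to 3 with a library left out (3 without WT 1, without KO 0, and without KO 2). The count of members at an unadjusted p under 0.05 was 0 without WT 1 and KO 2, where each group keeps fewer libraries, and 1 to 2 with a library left out, with *Jun* added without KO 1. *Fosb* turned to -0.59 with quantile normalization. With a library left out, *Fosb* was -0.86 without WT 2 and 1.57 without KO 2 and fell below the filter in the other 4 fits, *Junb* ranged from -0.82 to 0.80, *Atf3* from -1.56 to 0.066, *Dusp1* from -0.49 to 0.00068, and *Nr4a1* from -0.88 to 0.17. The cause was not tested. *Egr1* (-1.2 to -1.0) and *Jun* (-0.54 to -0.31) stayed negative and *Fos* (0.23 to 1.31) and *Ier2* (0.14 to 0.94) stayed positive in every setting that tested them, and a mean FPKM of at least 5 left out *Fos*, *Fosb*, and *Ier2*. With the replicate block the count of genes stayed at 1, members called at 0, and members at an unadjusted p under 0.05 at 1. The library numbers were not taken as pairs, since same-numbered libraries correlated at 0.12, -0.076, and -0.0088 across genes, and WT 1 correlated best with KO 2 (0.14).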

Other observations

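WT 2, the library with high *Atf3* and *Junb*, was also the highest of the 6 libraries for 12 of the 24 other AP-1 and bZIP genes tested, 15 of the 45 other immediate early genes, and 8 of the 19 heat shock and stress genes, beside 25.6% of all genes. It was highest for 7 of the 26 genes of SRF, its cofactors, and the kinases upstream, for 3 of the 20 feedback phosphatases and inhibitors, and for 2 of the 22 smooth muscle contractile genes. It was highest for 5 of the 7 macrophage markers tested and had the highest summed FPKM of these markers (149) and of the epithelial and mesothelial markers (233). *Jdp2*, an AP-1 repressor, was at 51.4 FPKM in WT 2 and between 10.5 and 19.5 FPKM elsewhere. *Fos* was not highest in WT 2, where its 3.92 FPKM was the highest of the WT libraries. *Fosb* was listed at 0 there, which can be a failed estimate. The part of these features in each other was not tested.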
